A study of Mus musculus with 18 samples.

Results

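The heat shock proteins and their co-chaperones were examined in the thick ascending limb of Henle's loop (TAL). They were taken by gene symbol, as every *Hspa*, *Hspb*, *Hsph*, *Hsp90a*, *Hspd*, *Hspe*, *Dnaja*, *Dnajb* or *Bag* gene with a number, together with *Hsf1* and *Hsf2*, and without pseudogenes and the endoplasmic reticulum chaperones *Hspa5*, *Dnajb9* and *Dnajb11*. The rule gave 49 of the 55401 genes in the tables and used no measured value. Most of the products work in the cytosol and nucleus. *Hspa9*, *Hspd1*, *Hspe1* and *Dnaja3* encode mitochondrial proteins, *Hspa13* a protein of the endoplasmic reticulum, and *Dnajb12* and *Dnajb14* proteins of its membrane, so the name cytosolic does not cover every member.

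Tubules were dissected by hand from liberase-treated kidneys of adult male mice (strain label C57BL/6J), either in the cortex (CTAL) or in the medulla, in the inner stripe of its outer part (MTAL), and each pool came from another animal. All mice carried floxed *Cldn10* alleles (*Cldn10* fl/fl). The conditional knock-outs (cKO) also carried *Ksp-Cre*, a recombinase driven by the promoter of Ksp-cadherin in the distal nephron, and the littermates without Cre are called wild type (WT). There were 5 pools of WT CTAL, 5 of cKO CTAL, 5 of WT MTAL and 3 of cKO MTAL. Only 3 cKO MTAL pools passed the study's quality control, since calcium deposits in the outer medulla made dissection difficult, and 1 further cKO CTAL pool had been left out by the study for its *Cldn10* level. The library from WT CTAL replicate 1 carries a WT pool name but a knock-out genotype label, and was kept as WT.

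Poly-A RNA was sequenced, and total counts per pool ranged from 10824328 to 62339991. Levels are given as CPM (read counts scaled to library size, with TMM factors) when one gene is compared between pools, and as TPM (corrected for transcript length) when genes are compared with each other. The targeted gene *Cldn10* was at 499 ± 82.1 CPM (SD) in WT CTAL, 172 ± 10.5 in cKO CTAL, 750.0 ± 60.5 in WT MTAL and 221 ± 72.2 in cKO MTAL, so that the deletion was incomplete. WT CTAL replicate 1 had 446 CPM of *Cldn10*, inside the range of the other WT CTAL pools. The 7 TAL markers summed to 50998 to 98888 CPM in every pool and the 5 proximal tubule markers to 11.6 to 78.4 CPM. Principal cell markers reached 953 CPM in cKO MTAL replicate 20, against 91.4 and 95.1 CPM in the other pools of its group. *Xist*, a transcript of the inactive X chromosome, was above 3 CPM in 7 of the 18 pools, 4 of them WT MTAL, 2 WT CTAL and 1 cKO CTAL, although the mice were described as male. It was at 6.50 to 8.77 CPM in these 7 pools and at most 0.738 CPM in the others. *Ddx3y*, a gene of the Y chromosome, was at 23.6 to 38.7 CPM over all 18 pools. In tubule pools, fewer cells of a type and less RNA per cell cannot be told apart.

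Heat shock proteins are chaperones that keep other proteins folded. HSP70 proteins bind unfolded stretches in a cycle driven by ATP, in which HSP40 proteins (*Dnaja*, *Dnajb*) deliver the client, and BAG and HSP110 proteins exchange the nucleotide. HSP90 then matures a narrower set of clients, among them kinases and steroid receptors, small heat shock proteins hold unfolded proteins without ATP, and a mitochondrial chaperonin of *Hspd1* and *Hspe1* folds imported proteins. Under heat or proteotoxic stress the factor HSF1 binds repeats of a short sequence, the heat shock element, and raises transcription of the inducible members. The kidney medulla, where the MTAL lies, is hyperosmotic, and HSP70 and small heat shock proteins are known to be abundant there.

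The promoters of the inducible pair *Hspa1a* and *Hspa1b* are shown first, because both genes differed between the segments of cKO mice and they are near-identical. Both lie on the minus strand of chromosome 17 (GRCm38), *Hspa1a* at 34969190 to 34972156 and *Hspa1b* at 34956436 to 34959238, 9951 bases apart. Each sequence gives the 250 bases before the RefSeq start, 5′ to 3′ on the strand of the gene (chr17:34972157-34972406 and chr17:34959239-34959488, GRCm38.p6), with capitals marking the match to a pair of inverted heat shock units, written GAANNTTC.
*Hspa1a*: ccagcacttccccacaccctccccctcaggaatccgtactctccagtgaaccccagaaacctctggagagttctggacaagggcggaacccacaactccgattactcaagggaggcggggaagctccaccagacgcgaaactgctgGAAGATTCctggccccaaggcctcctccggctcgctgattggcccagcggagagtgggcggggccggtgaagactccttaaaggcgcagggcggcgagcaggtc
*Hspa1b*: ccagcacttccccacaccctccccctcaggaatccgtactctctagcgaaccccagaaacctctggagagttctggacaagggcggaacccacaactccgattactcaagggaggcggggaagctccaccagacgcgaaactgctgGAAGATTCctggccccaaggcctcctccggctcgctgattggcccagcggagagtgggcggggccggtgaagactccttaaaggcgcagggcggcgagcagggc

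The upstream sequences were identical at 247 of 250 bases (98.8%), and the match starts 104 bases before the start site in both. The coding sequences, of 1926 and 1929 bases, were 99.4% identical, and 75.3% of the 75-base windows of the *Hspa1a* coding sequence also occurred in *Hspa1b*. The sources do not state how reads that fit both genes were counted, so the values of either gene alone are uncertain and their sum is given beside them. The antisense gene *Gm20481* overlaps 564 exonic bases of *Hspa1a*, and the use of strand in the counting is not stated. *Hspa1l* starts 546 bases from the *Hspa1a* start, on the other strand.

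The promoter shared by *Hspd1* and *Hspe1* on chromosome 1 is given because it holds a run of heat shock units in a promoter that serves both chaperonin subunits. The 150 bases before the *Hspe1* start on the plus strand are chr1:55087998-55088147, and capitals mark the array of alternating units.
*Hspe1*: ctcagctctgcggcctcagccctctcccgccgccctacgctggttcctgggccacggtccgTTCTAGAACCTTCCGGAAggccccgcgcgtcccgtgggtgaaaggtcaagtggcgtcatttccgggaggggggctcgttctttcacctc

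RefSeq promoter windows, from 250 bases before to 50 bases after a start, were found for 40 of the 49 members. A match to GAANNTTC or TTCNNGAA, which are the same pair of units read in either order and were searched on both strands, was present in 14 of these 40 genes, among them *Hspa1a*, *Hspa1b*, *Hspb1*, *Dnaja1* and *Bag3*. Counted by window, it was present in 16 of 54 member windows (29.6%) and in 15.1% of all 32851 windows. A run of 3 alternating units was present in 4 of the 40 genes (*Hspd1*, *Hspe1*, *Hsph1* and *Dnajb6*), in 6 of 54 member windows (11.1%) and in 0.603% of all windows. The *Hspb7* and *Hspa12a* windows held neither match. A match describes letters in this window and says nothing about binding.

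Every part of the chaperone system was detected in the TAL, and a few genes made up a large share of it. The members summed to 0.306% to 0.425% of all TPM in a pool, and *Hspa8*, *Hsp90ab1* and *Bag1* took 45.1% to 51.7% of that sum. *Hspa8*, the constitutive HSP70, had the highest mean level of 793 TPM (501 to 1006 over the 18 pools). *Hsp90ab1*, the constitutive HSP90, followed at 605 TPM (476 to 721), and *Bag1*, a nucleotide exchange factor, at 444 TPM (368 to 527). The ranges of these neighbours overlapped. The mitochondrial HSP70 *Hspa9* was at 299 TPM, the inducible HSP90 *Hsp90aa1* at 193 TPM and the chaperonin subunits *Hspd1* and *Hspe1* at 181 and 120 TPM.

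The inducible HSP70 genes ranked lower and spread more widely than the constitutive ones. *Hspa1b* was at 87.1 TPM (55.2 to 151) and *Hspa1a* at 62.1 TPM (35.9 to 124). *Dnaja2* led the type A HSP40 genes at 130 TPM and *Dnajb6* the type B genes at 46.6 TPM, while *Dnajb1*, the HSP40 partner of inducible HSP70, was at 20.3 TPM. The heat shock factor *Hsf1* was at 16 TPM and *Hsf2* at 4.96 TPM. The small heat shock proteins were low in these tubules, with 18.6 TPM for *Hspb1* (HSP27), 4.64 TPM for *Hspb7* and 0.649 TPM for *Hspb8*. *Hspb3* and *Dnajb8*, which are known from muscle and testis, had no counts in any of the 18 pools, *Dnajb7* had counts in 1 pool, *Dnajb13* in 3 and *Hspb9* in 6.

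**Figure D1:**
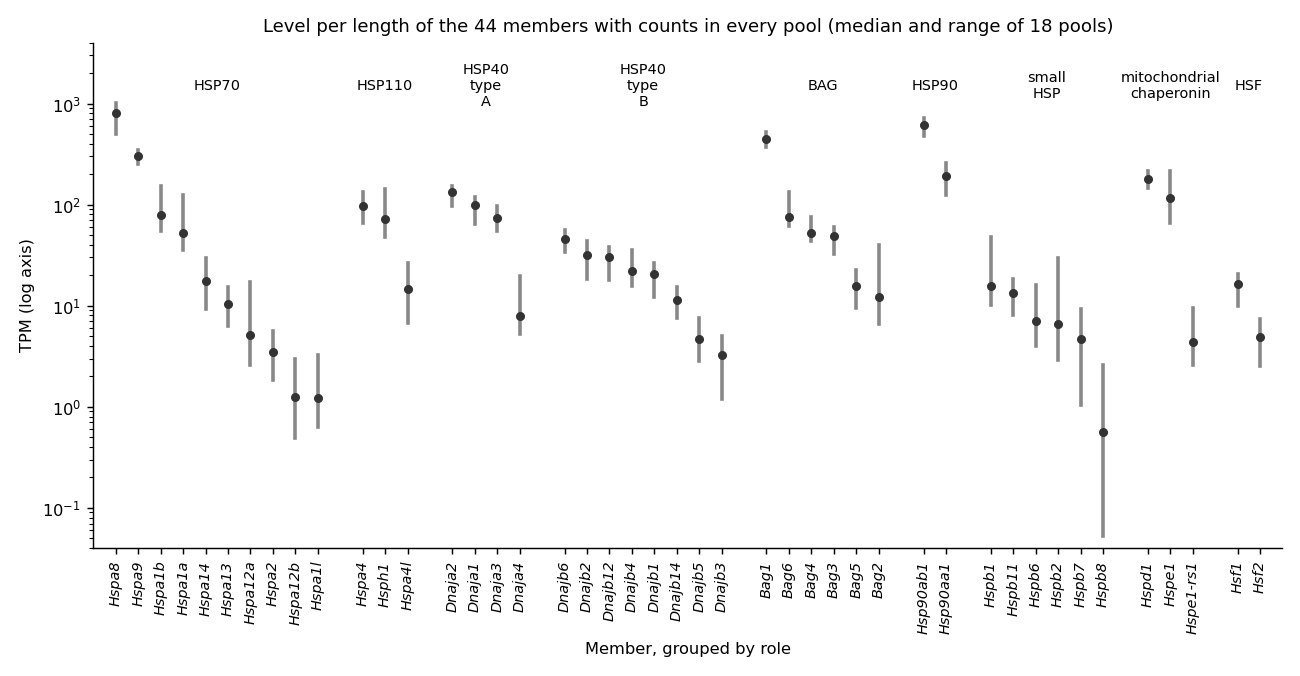
Level of the 44 members with counts in every pool, in TPM on a log axis, grouped by role, with the median of the 18 pools as a point and their range as a bar. *Hspa8* and *Hsp90ab1* stand at the top, and within the HSP70 group the levels run down to *Hspa12b* and *Hspa1l*, near 1 TPM.

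To enter a comparison, a member needed 3 CPM or more in 5 of its pools, or in 3 where cKO MTAL took part. Each comparison was fitted with edgeR's quasi-likelihood test over all genes that passed this filter, on the pools of its own groups. A gene is said to pass at a Benjamini-Hochberg adjusted p under 0.05 over all those genes, and to pass with size if its log2 fold change was also at least 1 in either direction. Standard errors (SE) are on the log2 scale. The 4 comparisons share groups, and cKO MTAL entered with 3 pools.

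Between cKO and WT MTAL a single member passed, the small heat shock protein *Hspb7*, which was higher in cKO MTAL. The HSP70, HSP90, HSP40 and chaperonin genes did not pass. Of the 41 members tested, 1 passed, against 7.01% of all 12060 genes tested, and the same 1 passed with size, against 3.74% of all genes. The median log2 fold change of the members was 0.08, and that of all genes 0.00. The CPM of cKO and WT MTAL did not overlap for 4 members, all of them higher in cKO MTAL, against 14.4% of all genes.

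*Hspb7*, a small heat shock protein known mainly from heart and skeletal muscle, lies on the plus strand of chromosome 4 at 141420779 to 141425311 (GRCm38). It was at 3.29, 2.30, 3.21, 3.79 and 3.46 CPM in the WT MTAL pools and at 6.54, 8.99 and 17.9 CPM in the cKO MTAL pools. All cKO MTAL pools lay above all WT MTAL pools, and replicate 20 was the highest. The log2 fold change was 1.81 (SE 0.38, adjusted p = 0.00952). Without cKO MTAL replicate 20, the pool with the high principal cell markers, the log2 fold change was 1.29 and the call was lost (adjusted p = 0.0770). These are low counts, near the filter in WT MTAL.

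*Hspa1b* was at 236, 247, 196, 138 and 213 CPM in WT MTAL and at 281, 268 and 319.7 CPM in cKO MTAL. The groups did not overlap, but the difference did not pass (log2 fold change 0.50, SE 0.16, adjusted p = 0.0650), whereas it passed with DESeq2 (adjusted p = 0.0269) and when WT MTAL replicate 13 was left out (0.58, adjusted p = 0.0460). *Hspa1a* was at 322, 185, 184, 109.5 and 150.0 CPM in WT MTAL and at 184, 197 and 272 CPM in cKO MTAL, and these ranges overlapped (log2 fold change 0.20, SE 0.25, adjusted p = 0.671). The highest *Hspa1a* value of all pools was that of WT MTAL replicate 11. The sum of both genes differed by a log2 fold change of 0.36 (adjusted p = 0.259). *Hsph1*, the inducible HSP110, was at 188, 185, 166, 174 and 197 CPM in WT MTAL and at 139.7, 171 and 123 CPM in cKO MTAL, where 2 of 3 pools lay below all WT pools (log2 fold change -0.33, SE 0.12, adjusted p = 0.124). It passed only without cKO MTAL replicate 18 among the fits that left out 1 pool (-0.46, adjusted p = 0.03996).

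*Bag6* and *Hsf1* were the other members without overlap, and *Bag6* was named after its values were seen. *Bag6*, a chaperone for membrane proteins on their way to insertion or degradation, was at 146 to 189 CPM in WT MTAL and at 190.0, 189.7 and 258 CPM in cKO MTAL (log2 fold change 0.32, SE 0.13, adjusted p = 0.141). *Hsf1* was at 16.6, 24.7, 23.9, 17.7 and 16.8 CPM in WT MTAL and at 25, 26.4 and 25.7 CPM in cKO MTAL (log2 fold change 0.37, SE 0.20, adjusted p = 0.282). The nearest WT pools of both genes lay within 1 CPM of the cKO pools.

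The most abundant members stayed within their spread in the MTAL. *Hspa8* was at 991 to 1318 CPM in WT MTAL and at 1126, 1310.3 and 1282 CPM in cKO MTAL (log2 fold change 0.08, SE 0.12, adjusted p = 0.735). *Hsp90ab1* was at 947 to 1084 CPM against 1046, 1153 and 1068 CPM (log2 fold change 0.10, SE 0.10, adjusted p = 0.586). *Bag3*, the stress-induced BAG protein of selective autophagy, was at 92.3 to 122 CPM against 122, 95.3 and 113 CPM (log2 fold change -0.00, SE 0.13, adjusted p = 0.995). The cKO MTAL pools lay within or close to the WT range for *Hspa8* and *Bag3*, and 1 of 3 lay above it for *Hsp90ab1*. The other named members lay between a log2 fold change of -0.49 for *Hspb1*, which had an SE of 0.42, and 0.18 for *Dnajb1*, with adjusted p-values from 0.476 to 0.986.

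Between cKO and WT CTAL no member passed the quasi-likelihood test. Of the 39 members tested 0 passed, against 1.22% of all 11702 genes, and 0 passed with size, against 0.470% of all genes. At an unadjusted p under 0.05 there were 7 members, 5 lower and 2 higher in cKO CTAL. The likelihood ratio test of DESeq2 called 2 members (*Hspa1a* and *Hspa12b*) and limma on log2 TPM called 0. The median log2 fold change of the members was -0.01, and that of all genes 0.00. The groups did not overlap for 1 member, against 3.09% of all genes.

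That member was *Hspa12b*, a distant HSP70 relative known from endothelial cells, named after its values were seen. It was at 3.50, 3.77, 3.72, 4.86 and 6.31 CPM in WT CTAL and at 1.78, 1.65, 2.44, 2.21 and 2.96 CPM in cKO CTAL. All cKO CTAL pools lay below all WT CTAL pools, at low levels, and the log2 fold change of -1.03 (SE 0.24) had an adjusted p of 0.0536. Only the WT CTAL pools reached the 3 CPM of the filter. *Hspa12b* thus entered the test only through the group where it was high, and its lack of overlap was fixed by the filter. The 6 endothelial markers summed to 214 to 477 CPM in WT CTAL and to 177 to 267 CPM in cKO CTAL, with a median log2 fold change of -0.57 over the 6 genes, none of them at 0. Their part in the *Hspa12b* values was not tested.

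*Hspa1a* was at 102, 99.98, 95.1, 149 and 144 CPM in WT CTAL and at 81.4, 99.2, 85.7, 74.4 and 94.1 CPM in cKO CTAL. The lowest WT pool lay below the highest cKO pool, and the difference did not pass (log2 fold change -0.45, SE 0.13, adjusted p = 0.130). *Hspa1b* was at 134, 144, 114, 154 and 177 CPM in WT CTAL and at 132, 153, 127, 93.7 and 178 CPM in cKO CTAL, so that the ranges overlapped (log2 fold change -0.09, SE 0.15, adjusted p = 0.864). *Bag3* was at 82.0 to 116 CPM in WT CTAL and at 64.7 to 90.03 CPM in cKO CTAL (log2 fold change -0.36, SE 0.12, adjusted p = 0.207). *Hsph1* was at 116 to 184 CPM and at 102 to 146 CPM (log2 fold change -0.31, SE 0.12, adjusted p = 0.303). The constitutive *Hspa8* (log2 fold change -0.01, SE 0.11, adjusted p = 0.990) and *Hsp90ab1* (log2 fold change -0.00, SE 0.08, adjusted p = 0.992) had nearly equal group means.

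The cKO CTAL pool of replicate 2 stood apart from its group. It held the highest value of the group for 19 of 41 members, where it held the highest value for 23.9% of all genes, with 407 CPM of *Hsp90aa1* against 277 to 320.0 CPM and 309 CPM of *Hspd1* against 225 to 261 CPM in the others. Its 4 endoplasmic reticulum chaperones (*Hspa5*, *Hsp90b1*, *Dnajb9* and *Dnajb11*) summed to 1921 CPM, where the group median was 836 CPM. Its distal convoluted tubule markers summed to 61.4 CPM against 3.56 to 13.99 CPM in the other pools of the group, and its proximal tubule markers to 73.5 CPM against 11.6 to 42.3 CPM, and the part of these cells in its chaperone values was not tested. Without this pool the number of members that passed in the CTAL was still 0.

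**Figure D2:**
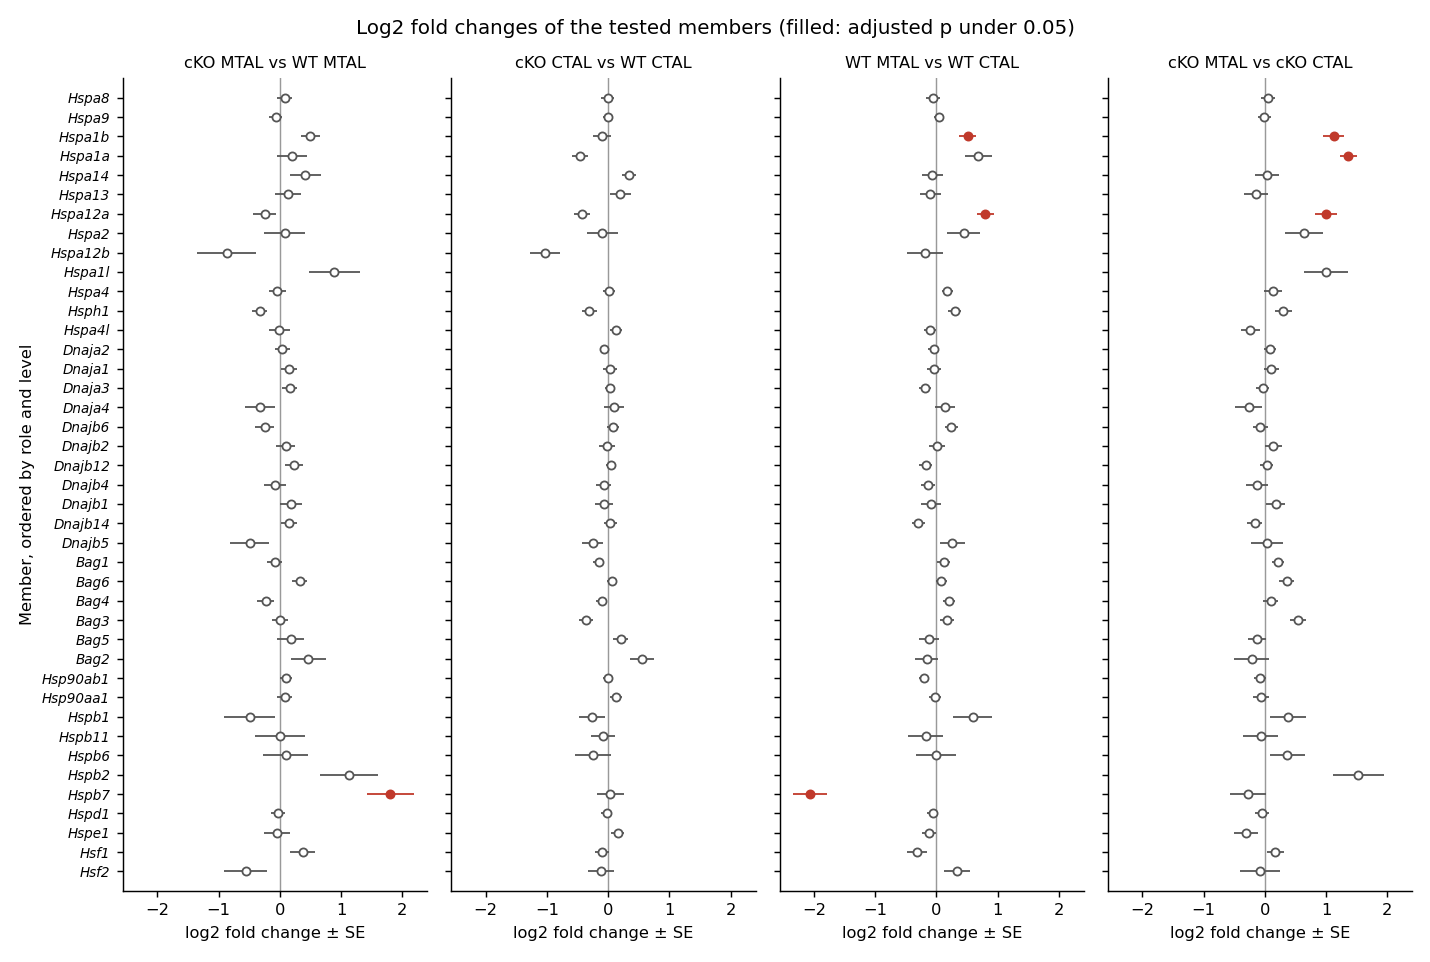
Log2 fold change with its SE for each tested member in the 4 comparisons, with members in rows ordered by role and level and filled red points where the adjusted p was under 0.05. The HSP90, HSP40, BAG and HSF rows hold no filled point, and *Hspb7*, *Hspa12a*, *Hspa1a* and *Hspa1b* are the rows that do.

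Between the segments of WT mice, *Hspa12a* and *Hspa1b* of the HSP70 family were higher in the MTAL, and *Hspb7* was higher in the CTAL. Of the 39 members tested 3 passed, against 6.87% of all 11650 genes, and 1 passed with size (*Hspb7*), against 2.32% of all genes. The median log2 fold change of the members was -0.03, and that of all genes 0.02. The groups did not overlap for 2 members, against 7.37% of all genes.

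*Hspb7* was at 15.3, 10.9, 21.6, 10.6 and 8.34 CPM in WT CTAL and at the 2.30 to 3.79 CPM given above in WT MTAL. Every CTAL pool held more than the highest MTAL pool, with a log2 fold change of -2.07 for MTAL over CTAL (SE 0.27, adjusted p = 0.000113). *Hspa12a*, a divergent HSP70 relative, was at 13.7, 13.1, 16.2, 14.98 and 12.1 CPM in WT CTAL and at 23.6, 27.0, 21.02, 26.8 and 23.7 CPM in WT MTAL. Here every MTAL pool lay above every CTAL pool (log2 fold change 0.80, SE 0.14, adjusted p = 0.00131), though limma on log2(TPM + 1) did not call it (adjusted p = 0.308).

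Of the inducible pair, *Hspa1b* passed between the WT segments and *Hspa1a* did not. *Hspa1b* rose by a log2 fold change of 0.51 (SE 0.14, adjusted p = 0.0405), from 145 ± 23.6 CPM in WT CTAL to 206 ± 43.0 CPM in WT MTAL (SD, n = 5 each). The lowest MTAL pool, at 138 CPM, lay inside the CTAL range, and the call was lost in 8 of 10 fits that left out 1 pool, those without WT CTAL replicate 1, 3, 8 or 10 or WT MTAL replicate 11, 13, 15 or 19, with an adjusted p of up to 0.106. Over all alternatives it was lost in 13 of 20, also with limma at either pseudocount (adjusted p = 0.192 and 0.193), with a term for *Xist* (0.0739), in the pools without *Xist* (0.123) and with WT CTAL replicate 1 counted as cKO CTAL (0.106). *Hspa1a* differed by 0.68 (SE 0.22, adjusted p = 0.0791), from 118 ± 26.3 to 190.1 ± 79.7 CPM. Without WT MTAL replicate 11, the highest pool, that difference was 0.41 (adjusted p = 0.182), and without WT MTAL replicate 17, the lowest, it was 0.83 and passed (adjusted p = 0.0171). The sum of both genes rose by 0.59 (adjusted p = 0.0465).

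The other members did not pass between the WT segments. *Hspb1* was at 8.79, 9.32, 9.88, 8.70 and 15.7 CPM in WT CTAL and at 32.8, 14.5, 14.8, 7.22 and 10.2 CPM in WT MTAL, with the highest value in replicate 11 and the CTAL range inside the MTAL range (log2 fold change 0.59, SE 0.33, adjusted p = 0.358). *Hsph1* differed by 0.30 (SE 0.11, adjusted p = 0.109) and *Hsp90ab1* by -0.20 (SE 0.08, adjusted p = 0.149). *Hspa8* (-0.05, SE 0.11), *Hsp90aa1* (-0.03, SE 0.09) and *Hspd1* (-0.06, SE 0.09) had log2 fold changes smaller than their SE.

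In cKO mice the inducible HSP70 pair and *Hspa12a* were higher in the MTAL than in the CTAL. Of the 40 members tested 3 passed, all higher in cKO MTAL, against 1.75% of all 12044 genes. Of these, 2 passed with size (*Hspa1a* and *Hspa1b*), against 0.938% of all genes. The median log2 fold change was 0.04 for the members and 0.03 for all genes. The groups did not overlap for 6 members, all higher in cKO MTAL, against 10.1% of all genes. Among these, *Hspb2* entered the comparison only through cKO MTAL, as described below.

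*Hspa1a* rose by a log2 fold change of 1.36 (SE 0.14, adjusted p = 0.000436), from 87.0 ± 9.89 CPM in cKO CTAL (SD, n = 5) to 218 ± 47.5 CPM in cKO MTAL (SD, n = 3). *Hspa1b* rose by 1.12 (SE 0.17, adjusted p = 0.00596), from 137 ± 31.4 to 289 ± 27.0 CPM. The lowest cKO MTAL pool exceeded the highest cKO CTAL pool for both genes, at 184 against 99.2 CPM and at 268 against 178 CPM. Their sum rose by 1.22 (adjusted p = 0.00153), with 168 to 272 CPM in cKO CTAL and 464.6 to 592 CPM in cKO MTAL. Both calls held in each fit that left out 1 pool, with adjusted p-values up to 0.00232 for *Hspa1a* and 0.0247 for *Hspa1b*.

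*Hspa12a* was at 10.1, 9.94, 10.8, 12.2 and 9.62 CPM in cKO CTAL and at 24.0, 17.8 and 19.8 CPM in cKO MTAL. It rose by a log2 fold change of 0.9996 (SE 0.18, adjusted p = 0.0136), a value lost as a call without cKO MTAL replicate 16 (adjusted p = 0.0764) and with limma on log2(TPM + 1) (adjusted p = 0.229). *Bag3* was at 64.7, 90.03, 86.0, 70.0 and 76.0 CPM in cKO CTAL and at 122, 95.3 and 113 CPM in cKO MTAL, without overlap (log2 fold change 0.55, SE 0.13, adjusted p = 0.0624), and passed without cKO MTAL replicate 18 (0.65, adjusted p = 0.0160). *Hspb2*, another small heat shock protein, was at 1.83 to 2.61 CPM in cKO CTAL and at 3.38, 3.65 and 11.4 CPM in cKO MTAL, with the high value again in replicate 20 (log2 fold change 1.53, SE 0.42, adjusted p = 0.0869). It reached the 3 CPM of the filter only in cKO MTAL, so its lack of overlap was fixed by the filter. *Hspb2* overlaps *Cryab*, the gene of alpha-B crystallin, by 252 exonic bases on the opposite strand.

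**Figure D3:**
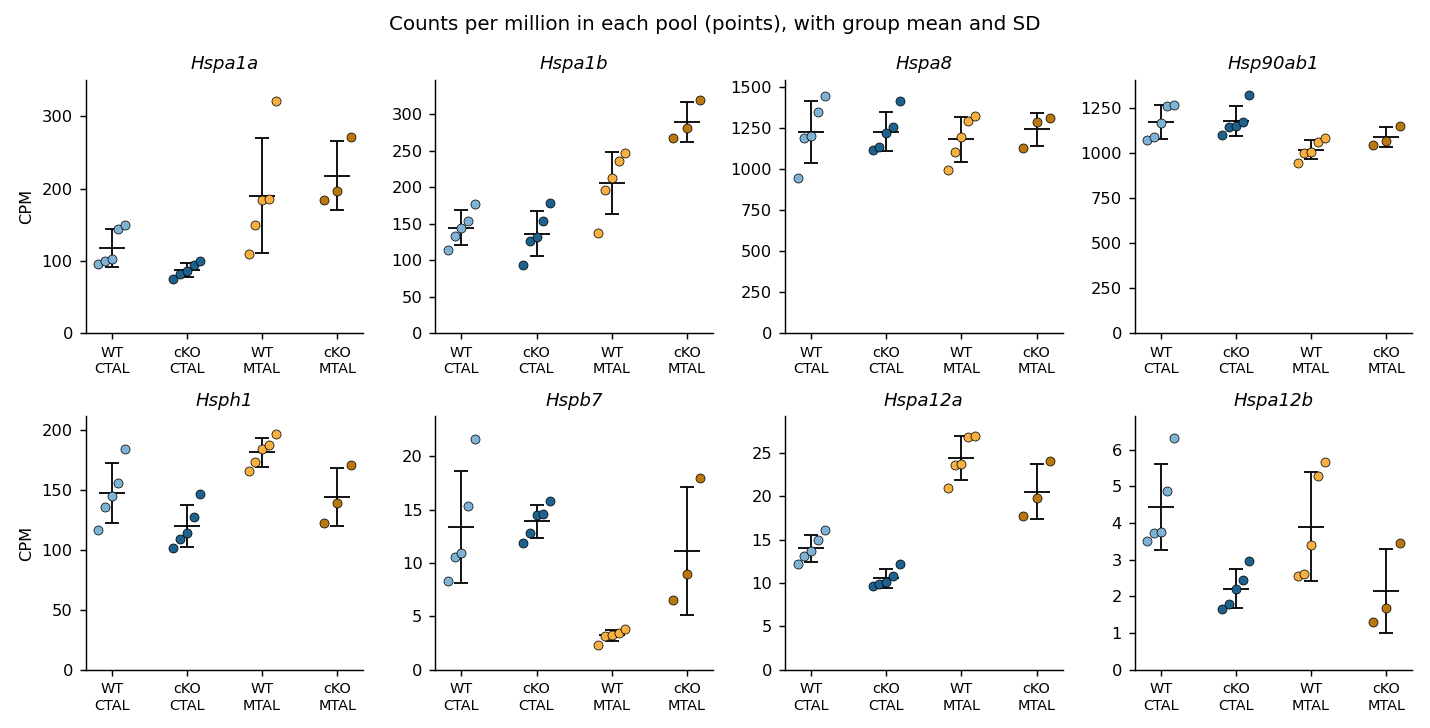
CPM of 8 members in each pool (points) by group, with the group mean as a bar and the SD as whiskers, on axes that start at 0. *Hspa1a* and *Hspa1b* have their highest group means in the MTAL, *Hspb7* is lowest in WT MTAL, and *Hspa8* lies in overlapping ranges in all 4 groups. For *Hsp90ab1* the cKO CTAL pools, from 1102 CPM, lie above the WT MTAL pools, up to 1084 CPM, and the other ranges overlap.

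Whether deletion acted differently in the segments was tested as an interaction over all 18 pools. Of the 41 members tested 0 passed, against 0.286% of all 12586 genes, and 5 had an unadjusted p under 0.05. DESeq2 called 1 member, *Hspb7*, and limma on log2 TPM called 0. The interaction was 1.75 for *Hspb7* (SE 0.40, adjusted p = 0.0594), 0.64 for *Hspa1a* (SE 0.31, adjusted p = 0.334), 0.58 for *Hspa1b* (SE 0.24, adjusted p = 0.255) and 0.45 for *Hsf1* (SE 0.21, adjusted p = 0.324). That of *Hspb7* passed without WT CTAL replicate 3 or 22, WT MTAL replicate 13 or cKO MTAL replicate 16 or 18, with an adjusted p down to 0.0110. The segment steps of *Hspa1a* and *Hspa1b* are therefore not shown to differ between the genotypes.

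Markers of other cell types also differed between cKO and WT MTAL. Of the 6 endothelial markers 4 passed as lower in cKO MTAL (*Cdh5*, *Emcn*, *Flt1* and *Plvap*), with a median log2 fold change of -0.98 over the 6 and sums of 144 to 243 CPM in cKO MTAL against 256 to 398 CPM in WT MTAL. Muscle markers, 5 genes, summed to more in cKO MTAL. Their sum over 5 genes was 56.8, 34.5 and 33.9 CPM in cKO MTAL and 15.6 to 20.9 CPM in WT MTAL, no marker was at 0, and 1 of the 3 tested passed (*Acta2*, log2 fold change 1.22, SE 0.27, adjusted p = 0.0114). Replicate 16 had the highest muscle sum and replicate 20 the highest *Hspb7* value. In WT CTAL, where *Hspb7* was at 8.34 to 21.6 CPM, the muscle sum was 22.2 to 38.4 CPM. Of the 3 proximal tubule markers tested 1 passed as higher in cKO MTAL (*Slc34a1*). The sum over 5 proximal tubule genes was 18.2, 78.4 and 66.8 CPM in cKO MTAL replicates 16, 18 and 20 and 16.7 to 30.6 CPM in WT MTAL. The part of muscle, endothelial or proximal tubule cells in the *Hspb7* values was not tested.

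Immediate early genes, which are transcribed within minutes of a stimulus, also differed between the segments of cKO mice. Their sum over 11 genes was 3359, 3254 and 3573 CPM in cKO MTAL and 920 to 1529 CPM in cKO CTAL, and 10 of 11 passed as higher in cKO MTAL, among them *Fos* (log2 fold change 1.81, SE 0.15, adjusted p = 0.000105), *Fosb* (1.73, SE 0.17, adjusted p = 0.000377) and *Atf3* (1.71, SE 0.25, adjusted p = 0.00470). In cKO against WT CTAL 5 of 11 passed as lower, with WT CTAL sums of 1403 to 3097 CPM. WT MTAL replicate 11 had the highest sum, 7892 CPM against 2058 to 3086 CPM in the other WT MTAL pools, and was also the pool with the most *Hspa1a* and *Hspb1*. Pools were dissected after incubation with liberase, and the part of handling in the *Hspa1a* and *Hspa1b* values was not tested.

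**Figure D4:**
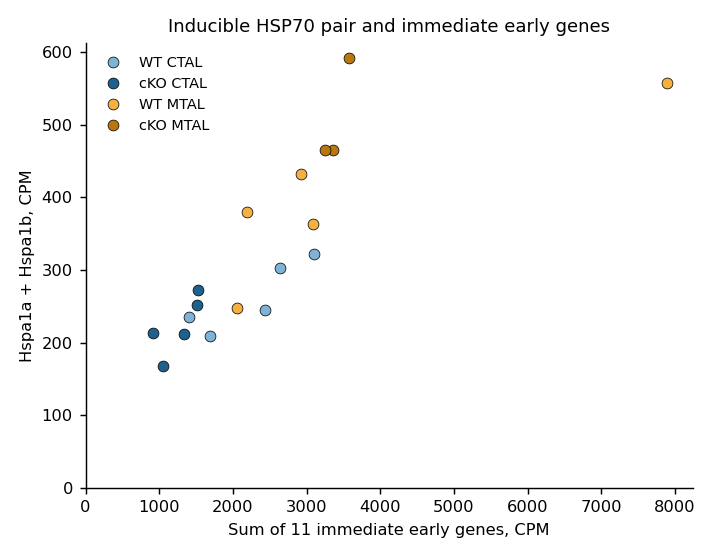
Sum of *Hspa1a* and *Hspa1b* against the sum of 11 immediate early genes, both in CPM, with 1 point per pool and groups by colour. The cKO MTAL pools lie between 3254 and 3573 CPM of immediate early genes, above the cKO CTAL pools on both axes, and WT MTAL replicate 11 stands alone at 7892 CPM.

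Of the remaining chaperone lists, the other co-chaperones, the CCT chaperonin and prefoldin moved little. Of 14 other co-chaperones, 8 CCT chaperonin subunits and 6 prefoldin subunits, all tested, 0 passed edgeR's test in each of the 4 comparisons and the interaction. At an unadjusted p under 0.05 there were 0 to 2 of the 28 genes, DESeq2 and limma on log2(TPM + 1) called 0, where 7.01%, 1.22%, 6.87%, 1.75% and 0.286% of all genes passed edgeR's test, in the order in which the comparisons are described above. The median log2 fold changes between groups lay between -0.11 and 0.06. Of 25 *Dnajc* co-chaperones tested, *Dnajc7* and *Dnajc28* fell in cKO against WT MTAL (log2 fold changes -0.55, SE 0.14, adjusted p = 0.0288 and -0.77, SE 0.18, adjusted p = 0.0153), and *Dnajc6* was lower in WT MTAL than in WT CTAL (-1.82, SE 0.37, adjusted p = 0.00510). These 2 of 25 and 1 of 25 stand beside the 7.01% and 6.87% of all genes that passed in the same comparisons. Of the 4 chaperones of the endoplasmic reticulum, which the rule leaves out, 2 passed in the MTAL. *Hspa5* (BiP) rose by 0.76 (SE 0.15, adjusted p = 0.00709) and *Dnajb11* by 0.73 (SE 0.16, adjusted p = 0.0115) in cKO against WT MTAL, while *Hsp90b1* (0.40, SE 0.16, adjusted p = 0.138) and *Dnajb9* (-0.34, SE 0.16, adjusted p = 0.216) did not pass.

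Among the 5 tonicity genes, *Slc6a12*, the betaine transporter, and *Nfat5*, the factor that drives this response, were higher in WT MTAL than in WT CTAL (log2 fold changes 2.47, SE 0.28, adjusted p = 2.49e-05 and 0.51, SE 0.13, adjusted p = 0.0288). *Slc6a12* was higher also in cKO MTAL than in cKO CTAL (2.28, SE 0.27, adjusted p = 0.000958). *Cryab*, which is a small heat shock protein by structure although its symbol lies outside the rule, was at 74.96 ± 13.8 CPM in WT MTAL against 39.6 ± 16.8 CPM in WT CTAL (log2 fold change 0.93, SE 0.21, adjusted p = 0.0109). It was at 74.3 ± 16.9 CPM in cKO MTAL against 28.9 ± 7.16 CPM in cKO CTAL (1.39, SE 0.21, adjusted p = 0.00470). *Cryab* did not pass for cKO against WT in the MTAL (-0.00, SE 0.17, adjusted p = 0.992).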

How the data were processed

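RNA of 18 pools of TAL was measured. The authors trimmed the reads, mapped them to mm10 with DRAGEN and quantified genes with a gencode annotation. The values deposited by the authors are estimated counts, not normalized, and TPM, which correct the counts for transcript length and depth. The libraries were made with a strand-specific kit. Whether strand was used in the counting and how reads with several matches were treated is not given in the sources used here. Estimated counts (6.26% to 9.53% of the values of a pool with decimals) were rounded, where the plan had assumed whole counts. All columns were mapped to pools.

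Counts were scaled with TMM and tested in edgeR (version 4.0.16, under R 4.3.3) by quasi-likelihood, on genes that reached 3 CPM in 5 pools, or in 3 with cKO MTAL, with Benjamini-Hochberg adjustment over all genes tested. Groups came from the labels. The members and lists were chosen with earlier results of these data known. Named members are 14 fixed by role and those with an adjusted p under 0.05 in at least 1 test, 16 in all, and of other lists up to 3 genes per direction among those that passed. The tests were checked on simulated counts. Replicate pairs (33) differed beyond sampling noise, with chi-square per gene from 14.8 to 132. P-values measure the spread between pools, which came from separate animals. Promoters are RefSeq windows of GRCm38.p6, and gene positions and lengths come from a GRCm38 annotation that holds all 49 members. Alternatives were RLE size factors, no filter beyond a count above 0, DESeq2 (version 1.42.0) with TMM factors, limma (version 3.58.1) on log2(TPM + 1) and log2(TPM + 0.1), each pool left out, WT CTAL replicate 1 as cKO CTAL, *Hspa1a* and *Hspa1b* summed, and 1 fit of all pools. Fits with a term for *Xist* (above 3 CPM) or on the pools without it were added after seeing the data.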

Additional observations from a re-analysis of the deposited data

Results flagged for a closer look

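Each named member was examined for a pool far from the others in the 3 groups of 5 pools, 48 sets in all, of which chance alone would flag about 1 in 20. A single value stood apart: *Hspb1* was at 15.7 CPM in WT CTAL replicate 22, where the other 4 pools of the group lay between 8.70 and 9.88 CPM. The same pool held the highest value of its group for 8 of the 11 inducible members, *Hspb1* among them, where it held the highest value for 26.0% of all genes, and the highest immediate early sum of WT CTAL, 3097 CPM.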

How the results depend on the processing

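No paired analysis was possible because the groups share no replicate number and each pool came from another animal. For the 16 named members, 22 gene and comparison pairs had an unadjusted p under 0.05, and 0 of 449 refits changed direction. For the 7 pairs that passed, 110 of 131 refits kept the call and 21 lost it, 13 of them for *Hspa1b* in WT MTAL against WT CTAL. For the 15 that did not pass, 22 of 318 refits gave a call. In cKO against WT MTAL the number of members that passed was 1, and it was 2 with DESeq2, 3 in 1 fit of all pools, 0 in the pools without *Xist*, and 0 to 2 with a pool left out (0 without cKO MTAL replicate 20). In cKO against WT CTAL it was 0, and 2 with DESeq2, and 0 with any pool left out. In WT MTAL against WT CTAL it was 3, and 1 with limma at either pseudocount, 1 in the pools without *Xist* (where WT MTAL has a single pool, assumed to vary like the other groups), and 2 to 5 with a pool left out, 5 without WT CTAL replicate 22. In cKO MTAL against cKO CTAL it was 3, and 5 each with DESeq2, in 1 fit of all pools, with WT CTAL replicate 1 counted as cKO CTAL and with a term for *Xist*, where *Bag3* and *Hspb2* passed as well, and 2 to 4 with a pool left out. For the interaction it was 0, and 1 with DESeq2 or no filter, and 0 to 1 with a pool left out, in each case *Hspb7*. In the pools without *Xist* the log2 fold change of *Hspb7* in cKO against WT MTAL was 2.30 (adjusted p = 0.0637) and that of *Hspa1b* 0.24. The cause of these moves was not tested. Low counts limit *Hspb7*, *Hspb2* and *Hspa12b*, and 3 pools limit cKO MTAL. *Hspb2* between the cKO segments and *Hspa12b* in the CTAL reached the filter only in the group where they were higher.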
